A study of Mus musculus with 8 samples.

Results

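To describe how the liver's lipid droplet machinery stood under isoginkgetin (ISOGK), the 10 genes of the Cide and perilipin families and of the main droplet lipase with its inhibitors were taken by gene symbol from the raw count table, which lists 16540 gene symbols. ISOGK is a biflavonoid from *Ginkgo biloba* that the study tested as an inhibitor of ATP-citrate lyase. All 8 livers came from male Apoe-/- mice on a Western diet, in which loss of apolipoprotein E raises plasma cholesterol, so that both groups share the knockout and the diet (named a high cholesterol diet in the study's methods, and begun before the injections). Of these, 4 mice received vehicle, which the column names of the table give as DMSO, and 4 received ISOGK at 20 mg/kg per day by intraperitoneal injection, both for 8 weeks. The age and the background strain of these mice are not given in the sources used here. That each library comes from a separate mouse rests on its label, and the p-values measure the spread between these libraries. All 10 genes were found in the table, and 9 of them passed the filter on low counts. *Cidea* did not. The genes were grouped with earlier results of this comparison in view, so the fitted changes and adjusted p-values of the members are a description of these livers and not independent evidence.

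Lipid droplets store triglyceride and cholesteryl ester inside a single layer of phospholipid, and hepatocytes fill and empty them with each cycle of feeding and fasting. Perilipins coat the droplet and govern which lipases reach it, while CIDE proteins gather where droplets touch and let neutral lipid pass from smaller to larger droplets. Adipose triglyceride lipase, encoded by *Pnpla2*, takes the first fatty acid from stored triglyceride, and the small proteins encoded by *G0s2* and *Hilpda* inhibit it. Several of these genes are known targets of the nuclear receptor PPAR alpha in liver. The study reported that liver cholesterol and triglyceride were lower in ISOGK-treated Apoe-/- mice of both sexes. Transcript values, as given here, do not measure stored lipid, droplet size or protein.

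The regulatory sequence before the start sites of the 3 genes with the smallest p-values in this set is shown first, because their transcripts rose together. The sequences are those of RefSeq on build GRCm38.p6 (the assembly that is also named mm10), written 5′ to 3′ on the strand of the gene, each within the 250 bases before an annotated start and without bases that GENCODE M21 places in an exon. Capitals mark matches, on either strand, to the nuclear receptor half-site AGGTCA or to 2 such half-sites spaced by 1 base (AGGTCANAGGTCA, with up to 2 mismatches). *Cidec* and *Plin5* each have 2 annotated starts, and the table counts each gene as a whole, so the starts cannot be told apart in these values. For *Plin5* only the window of the outer start is shown.
Cidec, upstream start, chr6:113435761-113436010, minus strand: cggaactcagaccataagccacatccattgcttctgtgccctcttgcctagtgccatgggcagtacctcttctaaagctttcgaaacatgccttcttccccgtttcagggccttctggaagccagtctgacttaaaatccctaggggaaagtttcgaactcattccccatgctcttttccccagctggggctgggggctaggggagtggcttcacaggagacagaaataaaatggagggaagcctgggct
Cidec, downstream start, chr6:113434765-113435014, minus strand: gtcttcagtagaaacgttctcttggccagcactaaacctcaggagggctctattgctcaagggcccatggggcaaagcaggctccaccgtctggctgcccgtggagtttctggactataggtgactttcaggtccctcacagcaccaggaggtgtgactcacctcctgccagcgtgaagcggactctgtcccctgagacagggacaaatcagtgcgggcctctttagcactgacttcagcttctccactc
Plin2, chr4:86670061-86670309, minus strand: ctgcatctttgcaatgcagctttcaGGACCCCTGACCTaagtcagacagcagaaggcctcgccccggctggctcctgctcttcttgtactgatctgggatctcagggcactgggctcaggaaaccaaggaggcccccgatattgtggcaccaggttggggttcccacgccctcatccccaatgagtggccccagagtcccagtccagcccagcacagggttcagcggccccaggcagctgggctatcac
Plin5, chr17:56117597-56117798, minus strand: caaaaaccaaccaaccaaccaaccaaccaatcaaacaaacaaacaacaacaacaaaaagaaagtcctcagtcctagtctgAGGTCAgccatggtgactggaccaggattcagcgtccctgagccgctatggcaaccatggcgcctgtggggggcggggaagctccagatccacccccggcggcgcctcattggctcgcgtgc
In *Plin2* the spaced repeat begins 225 bases before the start with 2 mismatches and contains a whole half-site on the opposite strand 218 bases before the start. *Plin5* has a half-site 170 bases before its outer start, and the window of its inner start held neither motif. Both *Cidec* windows held neither motif. Among all 32851 RefSeq promoter windows of 250 bases, 14.0% held the half-site and 3.24% the spaced repeat under the same rule, so either match is a description of the letters only. Of the 10 members, 9 had a promoter entry, in 12 windows. Of the remaining windows of members, 0 held either motif.

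**Figure D1:**
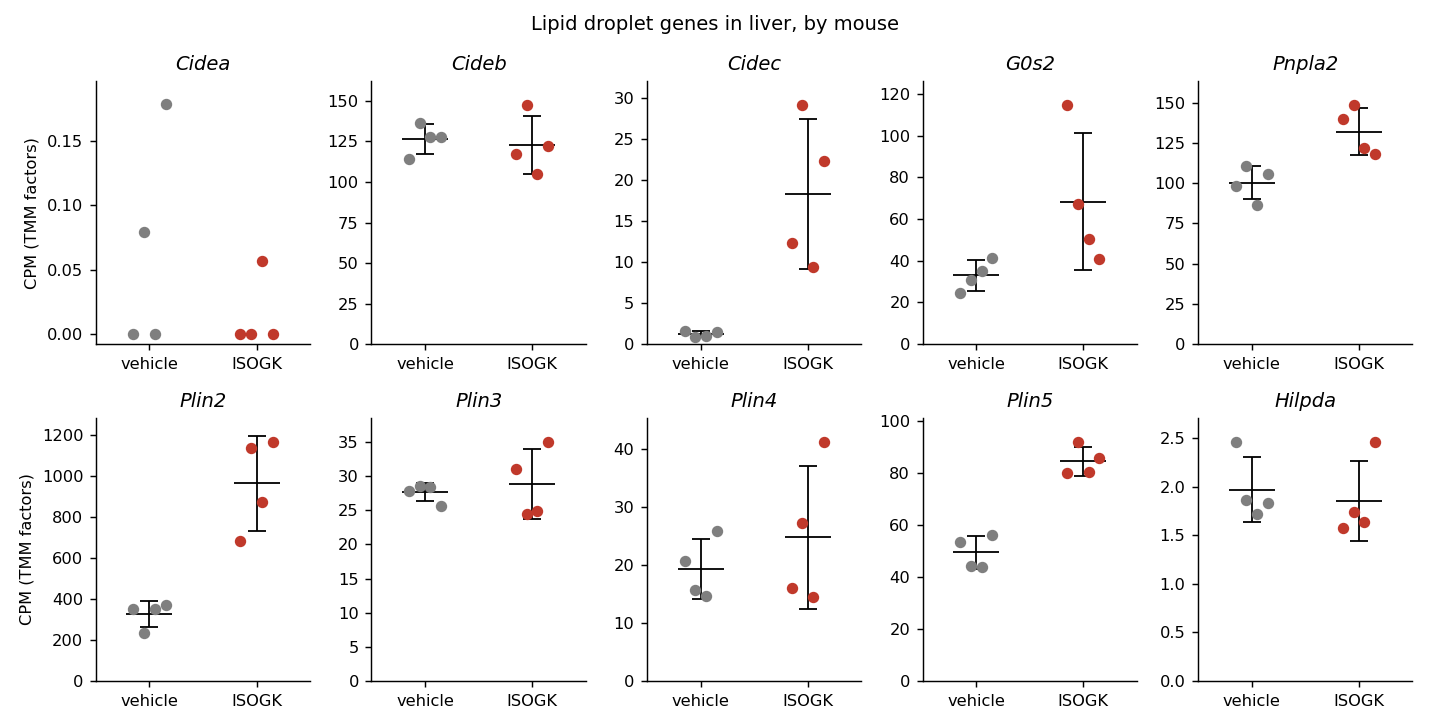
Normalized level (CPM with TMM factors, linear axes that start at or just under 0) of each of the 10 genes in the 4 vehicle-treated (grey) and 4 ISOGK-treated (red) mice, with the mean and SD as black bars except for *Cidea*, which had at most 4 counts. For *Cidec*, *Plin2*, *Plin5* and *Pnpla2*, all ISOGK-treated mice lie above all vehicle-treated mice.

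Total counts were 17457106 to 24461854 per library. The 9 hepatocyte marker genes examined were abundant in all libraries (145000 to 179000 CPM in sum, most of it *Alb*), and their sums overlapped between groups. Of the 9, 7 had a positive log2 fold change. Vehicle-treated mouse 4 stood apart in skeletal muscle genes, where 10 of 10 muscle markers were highest. Each of them had 27 to 451 counts there and no more than 9 elsewhere. Summed macrophage markers were 1420 to 1750 CPM with vehicle and 1080 to 1370 CPM with ISOGK, without overlap. Of the 10, 1 had a positive log2 fold change (*Clec4f*, 0.06). The largest part of the sum was *Cd5l*, with 629 ± 39.3 CPM with vehicle and 480 ± 72.4 CPM with ISOGK (SD, n = 4 each). *Cd5l* was not called (edgeR adjusted p = 0.0639), so the sum does not stand for each of the markers. In bulk tissue, fewer cells of a type and less RNA per cell cannot be told apart. Of the 7 adipocyte markers, *Cfd* had 2 to 13 counts and *Fabp4* 97 to 300. The other 5 were not among the gene symbols of the count table, so they have no values here.

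Of the 9 tested members, 4 were higher in ISOGK-treated livers at an adjusted p under 0.05 in edgeR's quasi-likelihood test, and 0 were lower. Among all 12307 genes tested, 4.11% were called higher and 3.44% lower by the same rule, and because the genes were chosen on this comparison nothing is read from the contrast between those shares. At an unadjusted p under 0.05, 5 members were higher and 0 lower in edgeR, as 12.5% and 11.6% of all genes were, and DESeq2 and limma-voom also called 0 members lower. The median log2 fold change was 0.40 over the 9 members and 0.002 over all genes tested. *Cidec* and *Plin2* also passed a log2 fold change of 1, as 0.999% of all genes did in that direction. The groups did not overlap for the 4 called members, while 7.92% of all genes were separated in that direction.

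**Figure D2:**
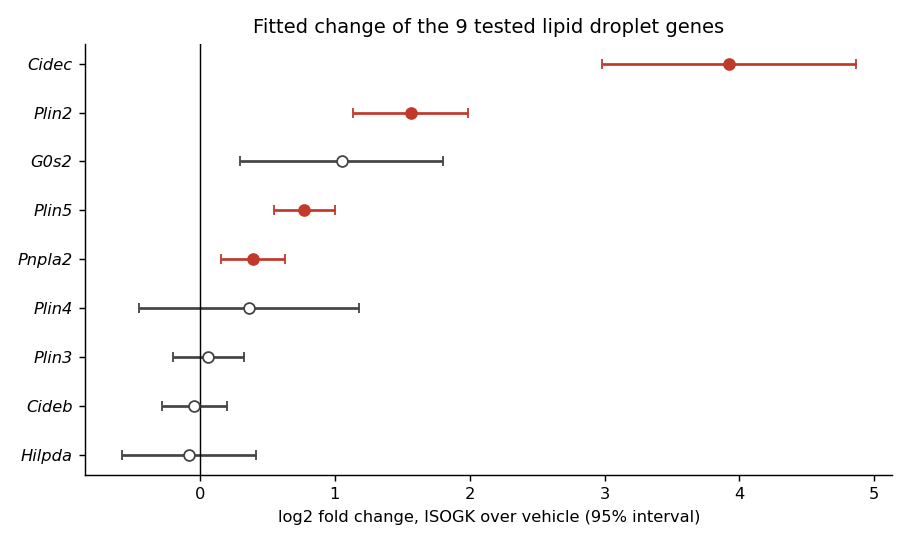
Fitted log2 fold change (ISOGK over vehicle) of the 9 tested genes with its 95% interval, filled where the adjusted p was under 0.05. *Cidec* has the largest value, 3.92, and the intervals of *Plin4*, *Plin3*, *Cideb* and *Hilpda* span 0.

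The CIDE family showed the largest and one of the smallest changes of the set. *Cidec*, whose protein (also known as FSP27) enlarges droplets in white fat and in fatty liver, lies on chromosome 6 from 113424634 to 113435760 in GRCm38 on the minus strand. It had 31, 22, 25 and 33 counts in vehicle-treated mice 1 to 4 and 251, 553, 166 and 426 counts in ISOGK-treated mice 1 to 4. The lowest ISOGK-treated mouse thus lay far above the highest vehicle-treated mouse. After scaling, the level was 1.22 ± 0.35 CPM (SD, n = 4) with vehicle and 18.3 ± 9.13 CPM with ISOGK. The log2 fold change of *Cidec* was 3.92 (95% interval 2.98 to 4.86, edgeR adjusted p = 0.00163), a 15.2-fold difference that ranked 2 of 12307 genes when ordered from the highest to the lowest log2 fold change. The spread was unequal, with a coefficient of variation of 28.4% among vehicle-treated and 49.9% among ISOGK-treated mice, where mice 2 and 4 had 29.2 and 22.3 CPM and mice 1 and 3 had 12.3 and 9.39 CPM.

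*Cideb*, the hepatocyte member of the family, which takes part in the lipidation of very low density lipoprotein, is on chromosome 14 from 55754050 to 55758458 on the minus strand. It had 114 to 136 CPM in vehicle-treated and 105 to 147.5 CPM in ISOGK-treated mice, and the groups overlapped. Its log2 fold change was -0.04 (edgeR adjusted p = 0.861), with a 95% interval of the fold from 0.822 to 1.15. Over 1451 bases it overlaps *Nop9* on the other strand, and since the use of strand in counting is not given in the sources used here, reads of the 2 genes may have been mixed there. *Nop9* had 294 to 461 counts, against 1852 to 3440 for *Cideb*.

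*Cidea*, the family member of brown fat that also appears in fatty liver, was at the limit of detection. It had 0, 2, 0 and 4 counts in vehicle-treated mice 1 to 4 and 0, 0, 1 and 0 counts in ISOGK-treated mice. At these depths 3 counts, the most that a count of 0 allows, correspond to 0.117 to 0.17 CPM, and no fold change is given. These limits cover counting error only. The highest of these counts was in vehicle-treated mouse 4, the library with muscle transcripts, whose part in it was not tested.

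The composition of the family differed between the groups. Per kilobase of the longest annotated transcript, *Cidec* made up 0.448% to 0.952% of the summed CIDE level in vehicle-treated mice and 5.94% to 12.2% in ISOGK-treated mice. The summed level of the family itself overlapped between groups, with 105 ± 7.4 CPM per kilobase (SD, n = 4) and 112 ± 19.9 CPM per kilobase, since *Cideb* remained the main transcript in every liver.

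**Figure D3:**
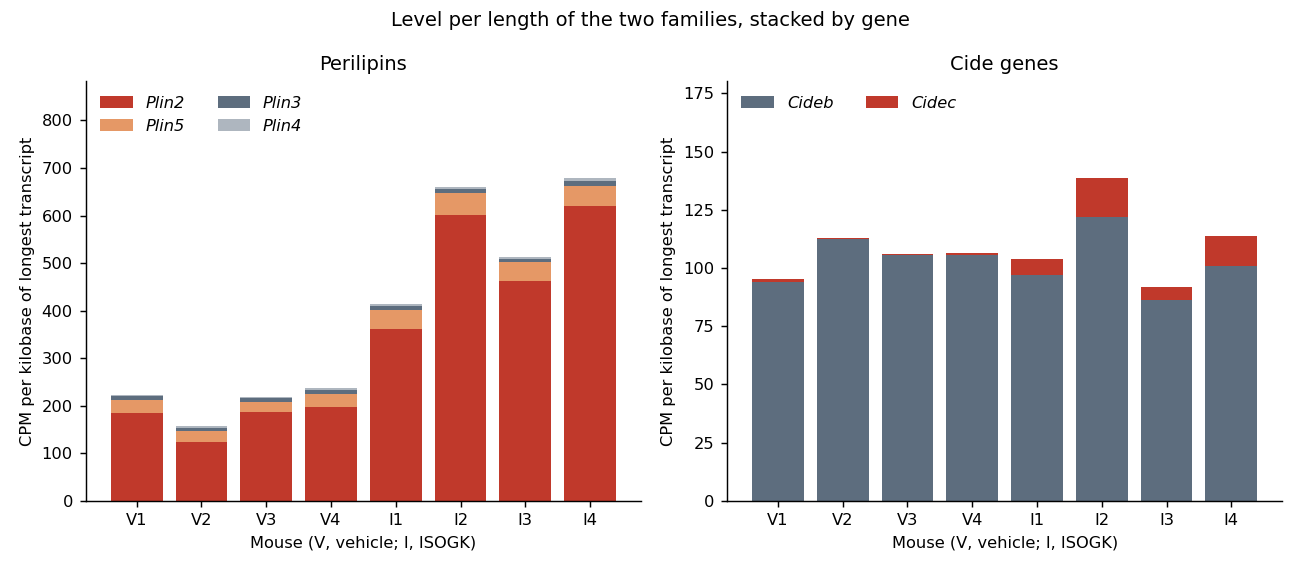
Stacked level per length (CPM per kilobase of the longest transcript) of the perilipin genes (left) and of *Cideb* and *Cidec* (right) in each mouse, V1 to V4 with vehicle and I1 to I4 with ISOGK; *Cidea* is too low to be drawn. *Plin2* fills most of every perilipin bar, and the *Cidec* segment is a thin line with vehicle and a wider band in every ISOGK-treated mouse.

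Among the perilipins, *Plin2* and *Plin5* rose while *Plin3* and *Plin4* were not called. *Plin2* encodes the main droplet coat of hepatocytes and lies on chromosome 4 from 86648386 to 86670060 on the minus strand. It had 349, 233, 352 and 372 CPM in vehicle-treated mice 1 to 4 and 682, 1136, 872 and 1169 CPM in ISOGK-treated mice 1 to 4. The groups were far apart, and the order of the ISOGK-treated mice was that seen for *Cidec* except that mice 1 and 3, and mice 2 and 4, changed places. The log2 fold change of *Plin2* was 1.56 (95% interval 1.14 to 1.99, edgeR adjusted p = 0.00163), a 2.95-fold rise. Vehicle-treated mouse 2 was low for this gene, and without it the log2 fold change was 1.43 (edgeR adjusted p = 0.00319, within a range of 2.49e-13 to 0.00865 over all alternatives).

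*Plin5*, the perilipin of oxidative tissues, whose protein binds adipose triglyceride lipase and its co-activator and brings droplets next to mitochondria, is on chromosome 17 from 56111601 to 56117596 on the minus strand. It had 53.6, 44.4, 44.0 and 56.1 CPM in vehicle-treated mice 1 to 4 and 80.1, 92.2, 80.6 and 85.8 CPM in ISOGK-treated mice 1 to 4. The ISOGK-treated mice were close to each other, with a coefficient of variation of 6.64%, the smallest of any member in that group. The log2 fold change of *Plin5* was 0.77 (95% interval 0.55 to 1.00, edgeR adjusted p = 0.00178), a 1.71-fold rise. *Plin5* is also expressed in muscle, and without vehicle-treated mouse 4, the library with muscle transcripts, the value was 0.84 (edgeR adjusted p = 0.00403).

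*Plin4*, a coat of nascent droplets in fat and muscle cells, lies 1797 bases downstream of the end of *Plin5* on the same strand (chromosome 17, 56100591 to 56109803). It had 20.8, 15.7, 14.7 and 25.9 CPM in vehicle-treated mice 1 to 4 and 16.0, 27.2, 14.5 and 41.3 CPM in ISOGK-treated mice 1 to 4. The groups overlapped, while ISOGK-treated mice 2 and 4 lay above all vehicle-treated mice. These mice were also the highest of the ISOGK group for *Cidec* and *Plin2*. The log2 fold change of *Plin4* was 0.36 (edgeR adjusted p = 0.582) with a 95% interval of the fold from 0.733 to 2.26, so a doubling as well as no change lies within these data. It was 0.00 without ISOGK-treated mouse 4 and 0.54 without vehicle-treated mouse 4, where *Plin4* was highest in its group.

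*Plin3*, the perilipin that moves between cytosol and droplets, lies further along the same chromosome (56277476 to 56292873). It had 25.7 to 28.6 CPM in vehicle-treated and 24.4 to 35.1 CPM in ISOGK-treated mice. Its log2 fold change was 0.06 (edgeR adjusted p = 0.798, 95% interval of the fold 0.87 to 1.25), and its sign turned to -0.08 under scaling to library size alone, a setting that shifted the all-gene median by -0.13 (log2).

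Per length, *Plin2* made up 79.0% to 85.2% of the summed perilipin level with vehicle and 87.5% to 91.2% with ISOGK. The shares of *Plin5*, *Plin3* and *Plin4* were each lower in all ISOGK-treated mice than in all vehicle-treated mice, as the rise of *Plin2* enlarged the sum. That of *Plin5* went from 12.1% ± 1.7 (SD, n = 4) to 7.78% ± 1.48 although its own level rose. The mean levels of *Plin3* and *Plin4* were 7.58 and 3.35 CPM per kilobase with vehicle and 7.92 and 4.30 with ISOGK. The summed level of the 4 perilipins was 209 ± 35.7 CPM per kilobase with vehicle and 566 ± 126 CPM per kilobase with ISOGK.

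The lipase and its inhibitors gave less clear values. *Pnpla2*, which encodes adipose triglyceride lipase, lies on chromosome 7 from 141455198 to 141460743 on the plus strand. It had 98.4, 110.6, 86.7 and 106 CPM in vehicle-treated mice 1 to 4 and 140, 149, 122 and 118 CPM in ISOGK-treated mice 1 to 4. The lowest ISOGK-treated mouse lay just above the highest vehicle-treated mouse. The log2 fold change of *Pnpla2* was 0.40 (95% interval 0.16 to 0.63, edgeR adjusted p = 0.0466), a 1.32-fold rise. The call was lost in 10 of 16 alternatives, among them every fit that left out a vehicle-treated mouse or ISOGK-treated mouse 1 or 2, with adjusted p-values from 0.0146 to 0.153 over all alternatives and log2 fold changes from 0.27 to 0.44.

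*G0s2* encodes a direct inhibitor of that lipase and lies on chromosome 1 from 193272161 to 193273217 on the minus strand. It had 24.5, 30.6, 35.1 and 41.5 CPM in vehicle-treated mice 1 to 4 and 115, 67.5, 50.2 and 40.7 CPM in ISOGK-treated mice 1 to 4. Of the ISOGK-treated mice, 3 were above the vehicle range and 1 was within it. The log2 fold change of *G0s2* was 1.05 (95% interval 0.30 to 1.81, edgeR adjusted p = 0.0975), and it was 0.68 without ISOGK-treated mouse 1. DESeq2 gave an adjusted p of 0.00289 and edgeR without the robust option 0.0474, within a range of 0.00289 to 0.274 over all alternatives.

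The whole of *G0s2* (1057 bases) lies within the span of *Lamb3*, a laminin gene of the other strand. Reads of the 2 genes may have been mixed there, but whether their exons overlap was not examined. *Lamb3* had 46, 55, 51 and 57 counts in vehicle-treated mice 1 to 4 and 106, 197, 60 and 101 counts in ISOGK-treated mice 1 to 4, and its fitted log2 difference was 1.43 (edgeR adjusted p = 0.016). *G0s2* had 488 to 2339 counts, and its highest mouse (ISOGK-treated mouse 1) was not that of *Lamb3* (ISOGK-treated mouse 2).

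*Hilpda*, the second lipase inhibitor and a known target of hypoxia-inducible factors, lies on chromosome 6 from 29272488 to 29275446 on the plus strand. It was low in every liver, with 41 to 49 counts with vehicle and 29 to 47 with ISOGK, and the groups overlapped. Its log2 fold change was -0.08 (edgeR adjusted p = 0.87, 95% interval of the fold 0.67 to 1.34), and it was 0.04 without vehicle-treated mouse 1.

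In terms of balance, the ratio of *G0s2* to *Pnpla2* per length was 0.75 to 1.22 with vehicle and 1.04 to 2.47 with ISOGK, and the groups overlapped. The ratio of *Plin5* to *Pnpla2* was 0.531 to 0.72 with vehicle and 0.758 to 0.959 with ISOGK, without overlap but with a narrow gap. An upward shift follows from the log2 fold changes of the 2 genes (0.77 and 0.40). Both were chosen on this comparison, so the ratios are a description and nothing further is read from them.

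**Figure D4:**
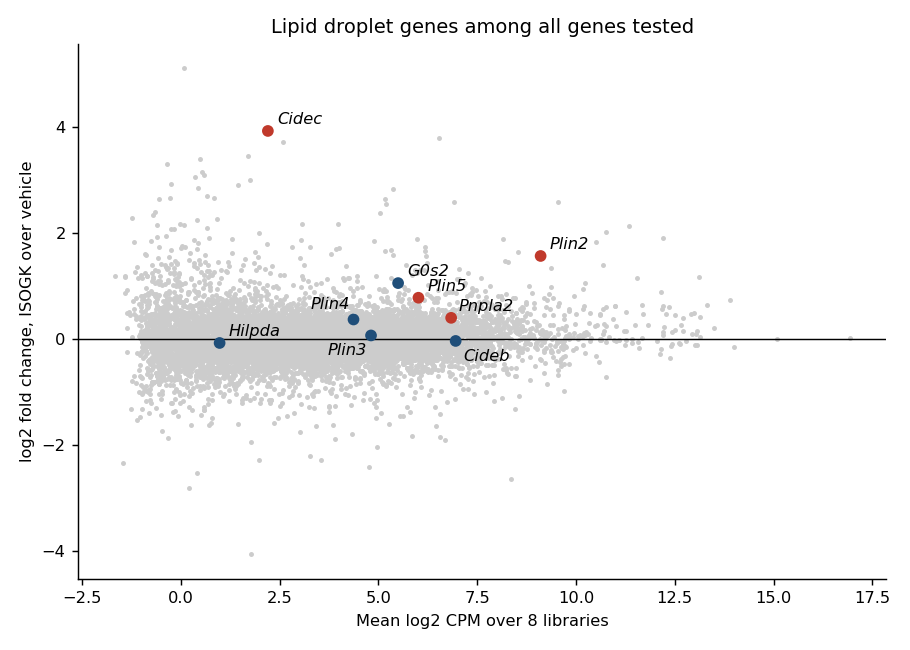
Log2 fold change (ISOGK over vehicle) against mean log2 CPM for all 12307 genes tested (grey), with the 9 tested members marked in red where the adjusted p was under 0.05 and in blue where it was not. *Cidec* stands far from the cloud at a low mean level, and *Plin2* at a high one.

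The levels per length of the members in vehicle-treated livers ran over several orders of magnitude. *Plin2* was highest with 173 ± 33.4 CPM per kilobase (SD, n = 4), followed by *Cideb* with 104 ± 7.5, *Pnpla2* with 38.3 ± 3.97, *G0s2* with 37.8 ± 8.27 and *Plin5* with 24.9 ± 3.13. *Plin3* (7.58 ± 0.37), *Plin4* (3.35 ± 0.90), *Hilpda* (2.00 ± 0.34) and *Cidec* (0.708 ± 0.202) came next on that scale and *Cidea* was last. *Pnpla2* and *G0s2* differed by less than their spread, and their order turned with the coding length. With ISOGK, the mean of *Cidec* moved from place 9 to place 6 with 10.6 ± 5.31 CPM per kilobase, above the mean of *Plin3*. In ISOGK-treated mice 1 and 3, however, *Cidec* (7.16 and 5.46) lay below *Plin3* (8.52 and 6.83).

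The members also differed in how they varied between mice of the same group. Over the 8 deviations of log2 CPM from the group mean, Pearson's r lay between -0.736 and 0.844 for the 36 pairs of tested members. The 6 pairs among *Cidec*, *Plin2*, *Plin4* and *Plin5*, grouped after their values were seen, lay between 0.633 and 0.844. *Hilpda* had values within or near that range with *Plin4* (0.728) and *Cidec* (0.547). *G0s2* went with -0.736 to 0.48 against the other 8 members, the lowest value being that with *Hilpda*. These libraries share depth and scaling between genes, and with 8 points the values are a description. Outside the members, *Tsnax* (r = 0.976), *Slc35a4* (r = 0.976) and *Exosc7* (r = 0.974) were most like *Cidec* in this measure, over the same 8 libraries and out of all genes tested. Picked as the highest of so many values over 8 points, they could be this high by selection alone, and no shared regulation is read from them. Between the groups their log2 fold changes were 0.10, -0.14 and 0.60 (edgeR adjusted p = 0.537, 0.513 and 0.0469).

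**Figure D5:**
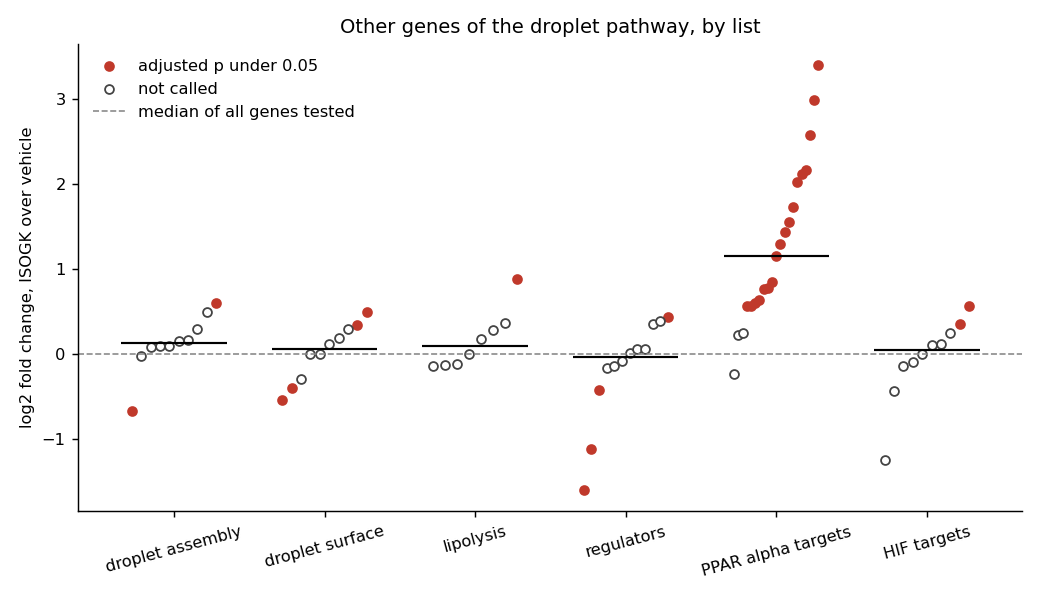
Log2 fold change (ISOGK over vehicle) of each tested gene of 6 other lists, filled where the adjusted p was under 0.05, with the list median (black line) and the median of all genes tested (dashed). The 3 droplet lists have medians of 0.12, 0.06 and 0.09, and the PPAR alpha targets one of 1.16.

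Other genes of the droplet were taken from lists compiled by hand with earlier results of these data known. Beside the calls of each list, 4.11% of all genes tested were called higher and 3.44% lower. Among 10 tested genes of droplet assembly, *Dgat1* was called higher and *Dgat2* lower. Both encode enzymes that add the last acyl chain of triglyceride. *Dgat2*, by far the more abundant in counts, had 396 ± 28.9 CPM with vehicle and 249 ± 27.6 CPM with ISOGK (SD, n = 4 each) and fell by 0.67 on the log2 scale (edgeR adjusted p = 0.00336). *Dgat1* had 10.1 ± 1.32 CPM with vehicle and 15.2 ± 1.46 CPM with ISOGK and rose by 0.60 on the log2 scale (edgeR adjusted p = 0.0161), but the call was lost without ISOGK-treated mouse 2 (adjusted p = 0.0522, range over all alternatives 0.000873 to 0.0522). *Fitm2*, which encodes a protein of droplet budding, had a log2 fold change of 0.49 that just missed the threshold (edgeR adjusted p = 0.0501).

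Of 8 tested genes of droplet lipolysis, 1 was called, while 7.55% of all genes tested were called in either direction. Nothing is read from that count. *Mgll*, the monoglyceride lipase that completes triglyceride breakdown, had 86.8 ± 14.2 CPM with vehicle and 159 ± 22.1 CPM with ISOGK (SD, n = 4 each). It rose by 0.88 on the log2 scale (edgeR adjusted p = 0.00336) and stayed past the threshold in all 16 alternatives. *Abhd5*, the co-activator of adipose triglyceride lipase, had 19.5 ± 1.47 CPM with vehicle and 18.0 ± 1.37 CPM with ISOGK (edgeR adjusted p = 0.535, 95% interval of the log2 fold change -0.33 to 0.11). *Lipe*, hormone-sensitive lipase, had 15.3 ± 1.17 and 15.3 ± 1.60 CPM (edgeR adjusted p = 0.991, 95% interval of the log2 fold change -0.24 to 0.25). *Ces1d* and *Ddhd2*, lipases as well, had log2 fold changes of 0.36 and 0.28 with overlapping groups (edgeR adjusted p = 0.335 and 0.337).

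Among 10 tested genes of the droplet surface, 2 were higher and 2 lower (4.11% and 3.44% of all genes tested). *Vps13c*, a lipid transfer protein at contacts with the endoplasmic reticulum, and *Mettl7a1* had log2 fold changes of -0.40 and -0.54, and *Mettl7b* and *Hsd17b11* of 0.49 and 0.34 (edgeR adjusted p from 0.0209 to 0.0465). *Hsd17b11* was named after its value was seen. The number of calls in this list was 2 with library size alone and fell to 0 without vehicle-treated mouse 1 or 2, to 1 without vehicle-treated mouse 3 or 4 or ISOGK-treated mouse 2, and to 2 without ISOGK-treated mouse 1.

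Regulators known to act on the members showed changes of both signs, with 1 of 12 higher and 3 lower (4.11% and 3.44% of all genes tested). *Ppara* itself had 77.1 ± 6.33 and 80.5 ± 12.0 CPM (SD, n = 4 per group, edgeR adjusted p = 0.791). *Creb3l3*, a liver factor that acts on *Cidec* in steatosis, had 200 ± 23.4 CPM with vehicle and 269.5 ± 19.5 CPM with ISOGK and rose by 0.43 on the log2 scale (edgeR adjusted p = 0.0328), a call that was lost in 8 of 16 alternatives (adjusted p 0.00299 to 0.112). *Srebf1* and *Mlxipl*, factors of lipid synthesis, fell by 1.60 and 1.12 on the log2 scale (edgeR adjusted p = 0.00592 and 0.000908), and *Epas1*, a hypoxia-inducible factor named after its value was seen, fell by 0.42 (edgeR adjusted p = 0.0433). Only 2 of the regulators were called without vehicle-treated mouse 1, 2, 3 or 4 or ISOGK-treated mouse 2 or 4, against 4 with all mice.

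Other PPAR alpha targets were called higher for 18 of 21 genes on the list, against 4.11% of all genes tested. This list was compiled with earlier results of these data known, so the count is a description and not independent evidence. The median log2 fold change of the list was 1.16. *Ehhadh*, *Cyp4a14* and *Cyp4a10* had the smallest adjusted p-values (log2 fold changes 2.57, 2.12 and 2.02, edgeR adjusted p = 4.65e-07, 1.02e-05 and 6.1e-05). Reads of related genes of the Cyp4a family could have been split between them, which was not tested. In the same livers the members known as targets of this receptor ranged from 3.92 for *Cidec* to -0.08 for *Hilpda* on the log2 scale. Of 10 tested targets of hypoxia-inducible factors, the group to which *Hilpda* also belongs, *Bnip3* and *Ndrg1* were called higher (log2 fold changes 0.56 and 0.35, edgeR adjusted p = 0.0337 and 0.0393), and *Adm* had -0.44 (edgeR adjusted p = 0.142). With 1 mouse left out this list had 0 or 1 calls: 0 without vehicle-treated mouse 2, 3 or 4 or ISOGK-treated mouse 2 or 4, and 1 without any other mouse.

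Macrophages also hold lipid droplets and express *Plin2*. Their summed markers were lower with ISOGK, as given above. Of the 10 markers, 2 were called lower and 8 were not called, while 3.44% of all genes tested were called lower. The 2 called were *Gpnmb* at -1.19 and *Cd68* at -0.57 on the log2 scale (edgeR adjusted p = 6.5e-05 and 0.009). *Plin2* was higher in the same libraries, and the part of cell composition in the values of the members was not tested.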

How the data were processed

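RNA sequencing of 8 mouse livers (4 with vehicle, 4 with ISOGK) was read from 1 table of whole-number counts per gene symbol. The authors aligned single-end reads with HISAT2 to the mouse genome (mm10 per the labels), and the deposited counts were made with StringTie, without normalization. The annotation release and the use of strand are not given in the sources used here. Libraries were prepared with a SMARTER mRNA kit.

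The filterByExpr rule (at least 10 counts per library of median size in enough libraries, and 15 in total) kept 12307 of 16540 genes. They were fitted in edgeR 4.0.16 under R 4.3.3 with TMM factors and robust quasi-likelihood dispersions, with Benjamini-Hochberg adjustment over all genes tested. Alternatives were DESeq2 1.42.0, limma-voom (limma 3.58.1), other scalings and filters, no robust option, a replicate block and each mouse left out. Log2 CPM used a prior count of 2. The common biological coefficient of variation was 0.164. Intervals of fold changes come from the fit and include the spread between mice, while the limits given for a count of 0 cover counting error only, without molecular identifiers. Chi-square values of 18.1 to 99.7 per gene between libraries of a group, against about 1 for sampling noise, showed no duplicated library. Fits were tested on simulated counts.

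Lengths, coordinates and overlapping genes came from GENCODE M21 (GRCm38), which held all 10 members, and promoters from RefSeq. The members and lists were chosen with earlier results of these data known. Named genes were all members, up to 3 genes with the smallest adjusted p per list, *Ppara*, *Abhd5*, *Lipe* and the 3 genes most like *Cidec*. Outside this rule, *Hsd17b11* and *Epas1* were named after their values were seen, and *Nop9* and *Lamb3* because they overlap members. *Alb*, *Cfd*, *Fabp4*, *Clec4f*, *Cd5l*, *Gpnmb* and *Cd68* were named as cell type markers. Lists of hepatocyte, adipocyte, skeletal muscle, macrophage and stellate cell markers were summed. The 6 stellate markers summed to 327 to 438 CPM with vehicle and 262 to 485 CPM with ISOGK, and the groups overlapped. Plots show values per mouse.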

Additional observations from a re-analysis of the deposited data

Results flagged for a closer look

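Groups of 4 values (members, ratios between them and marker sums) were examined for a mouse far from the others. Of 48 groups, 3 passed the 95% critical value of Dixon's test, while 2.4 would be expected by chance if the groups were independent. They are not, since shares and ratios reuse the values of members, so that number is only a rough guide. *Plin2* in vehicle-treated mouse 2 was 233.1 CPM, while vehicle-treated mice 1, 3 and 4 had 349 to 372 CPM. *Cidea* in ISOGK-treated mouse 3 was 0.0565 CPM, which is 1 count, against 0 counts in the other ISOGK-treated mice. Any such group, with 0 in all mice but 1, passes this test, so nothing is read from that flag. The summed skeletal muscle markers in vehicle-treated mouse 4 were 71.3 CPM, while mice 1 to 3 of that group had 0 to 0.506 CPM. Without that mouse, *Cidec*, *Plin2* and *Plin5* had log2 fold changes of 4.03, 1.63 and 0.84 and kept an edgeR adjusted p under 0.05, and *Pnpla2* had 0.42 and did not (adjusted p = 0.0801).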

How the results depend on the processing

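*Cidec* (log2 fold change 3.60 to 4.13), *Plin2* (1.42 to 1.70) and *Plin5* (0.65 to 0.84) kept their direction and an adjusted p under 0.05 in all 16 alternatives, and *Plin4* stayed uncalled with values of 0.00 (without ISOGK-treated mouse 4) to 0.54. With 1 mouse left out, 3 to 4 members were called higher and 0 lower. Small changes turned sign: *Cideb* was 0.02 without ISOGK-treated mouse 3 (-0.14 to 0.02 with any 1 mouse left out), *Plin3* was -0.08 with library size alone and -0.04 without ISOGK-treated mouse 4 (-0.04 to 0.14), and *Hilpda* was 0.04 without vehicle-treated mouse 1 (-0.25 to 0.04). The causes were not tested.

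Same-numbered deviations correlated at -0.014 to 0.085, and 1 of 4 vehicle-treated mice matched its own number best. These values showed no pairing of the mice by replicate number, but with 4 mice per group they cannot exclude one. With the replicate block, 827 genes were called in place of 929, the droplet surface list had 2 calls in place of 4, and the call of each member stayed on its side of the threshold. With library size alone the surface list had 2 calls and the hypoxia list 1 in place of 2, which was also 1 without a filter. With 1 mouse left out, calls were 1 to 3 for droplet assembly, 0 to 3 for the surface, 1 for lipolysis, 2 to 4 for regulators, 16 to 17 for PPAR alpha targets and 0 to 1 for hypoxia targets.

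Calls over all genes ranged from 379 without vehicle-treated mouse 2 to 1435 with DESeq2, and 471, 496, 511 and 550 were called without ISOGK-treated mouse 2 and vehicle-treated mice 3, 1 and 4.

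By level per length in vehicle-treated mice, *G0s2* took place 3 and *Pnpla2* place 4 with the coding length or with summed exons (3 to 4 for both with a mouse left out), and with the coding length *Hilpda* took place 7 and *Plin4* place 8. *Cidea* and *Hilpda* are limited by depth.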
